A study of Mus musculus with 20 samples.

Results

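Cell cycle genes were followed in the livers of 20 mice, as 46 listed genes in 2 classes: 18 whose products act at the entry into and during DNA synthesis (G1/S members) and 28 whose products act in G2 phase and mitosis (G2/M members). A member was measured through every probe whose single gene symbol in the platform annotation was its own, with 1 mean per gene. On this basis 44 of the 46 members were measured, through 50 of the 23493 probes, namely 18 of 18 G1/S and 26 of 28 G2/M members, out of 15252 genes in all. The mitotic cyclin Ccnb1 and the kinetochore motor Cenpe had no probe under a single symbol. Each of the 5 groups held 4 mice. They received a rapid, large-volume injection into the tail vein, a route that carries nucleic acid into the liver, and the livers were taken 48 hours later. The vehicle group received Ringer's solution alone, and the other 4 groups received 40 µg of siRNA in it: a PPARa siRNA or a PPARa-M siRNA, which target different stretches of the mRNA of Ppara, a nuclear receptor that switches on fatty acid oxidation genes in liver, or a GL3 or SEAP-M control siRNA, directed at GL3, a luciferase sequence, and at secreted alkaline phosphatase (SEAP). All groups, vehicle included, thus shared the injection itself. The sources used here give no strain, sex or age of these mice and do not say what the letter M stands for.

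Most hepatocytes of an adult liver rest outside the cell cycle and can re-enter it after loss or injury of liver tissue. Entry into DNA synthesis depends on cyclins D and E and on E2F factors, which switch on genes for the replicative helicase and for nucleotide synthesis. The genes of the later phases include Cdk1, the cyclins A and B and the spindle and checkpoint proteins. They are held down by the DREAM complex in resting cells and switched on by MuvB complexes together with FOXM1. Both act largely through a promoter element called the cell cycle genes homology region (CHR).

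Each value is a log2 ratio of the RNA of 1 mouse liver to a pool of 4 vehicle mice on a 2-colour array. A value of 0 thus marks the level of the pool, and 1 log2 unit is a doubling. The direction, mouse over pool, is likely rather than settled: the sample titles name the pool first, and Ppara was lower in the mice given Ppara siRNA. Against SEAP-M, Ppara was 1.85-fold lower in PPARa-M siRNA mice (log2 difference -0.89 ± 0.17 SE, n = 4 against 4, adjusted p = 0.0103, limma across all genes). Against GL3 it was -0.34 ± 0.17 log2 in PPARa siRNA mice (adjusted p = 1.0, limma), which did not pass. Interferon-stimulated genes, 22 of them, averaged 1.52 and 1.51 log2 in PPARa-M siRNA mice C and D, against a range of -0.33 to 0.24 in the other 18 mice, so counts of members called are also given without those 2 libraries where they moved. PPARa-M siRNA arrays also tended to wider distributions, with interquartile ranges of 0.0735 to 0.1245 log10 units against 0.0442 to 0.0852 in the other groups. The files hold ratios and no intensities, so a liver identity of the samples could not be checked, and whole liver RNA cannot tell fewer cycling cells from less RNA per cell.

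As a class, G2/M members were low in all 4 PPARa-M siRNA mice, while G1/S members were low in only some of them. The mean over the 26 G2/M members was -0.58, -0.71, -0.87 and -0.87 log2 in PPARa-M siRNA mice A to D (mean -0.76 ± 0.14 SD, n = 4). The mean was -0.10 ± 0.46 (SD, n = 4) in SEAP-M, -0.02 ± 0.43 in GL3, -0.11 ± 0.32 in PPARa siRNA and -0.04 ± 0.31 in vehicle mice. The PPARa-M siRNA values did not overlap those of the GL3, PPARa siRNA or vehicle mice. GL3 mouse A, at -0.56, lay just above the highest PPARa-M siRNA mouse, and 1 SEAP-M mouse, A, lay among the PPARa-M siRNA values at -0.67. The mean over the 18 G1/S members was -0.14, 0.05, -0.44 and -0.42 in the same PPARa-M siRNA mice. Mice C and D, whose interferon-stimulated genes were high, were the 2 with low G1/S means, and the part of those genes in the G1/S level was not tested. In the other groups the G1/S means ranged from -0.34 to 0.31, so only C and D lay below every other mouse.

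Within each mouse the 2 classes could be compared, since array-wide shifts cancel in their difference. Unequal spread does not cancel, and G2/M members varied more within groups (median pooled SD 0.40 against 0.25 log2). The G2/M and G1/S means were -0.67 and -0.34 in SEAP-M A and -0.56 and -0.30 in GL3 A. They were -0.87 and -0.44 in PPARa-M siRNA C and -0.87 and -0.42 in D, while A and B had G1/S means of -0.14 and 0.05. The part of this unequal spread in the difference was not tested. The G2/M mean minus the G1/S mean was -0.44, -0.75, -0.43 and -0.45 log2 in PPARa-M siRNA mice A to D (mean -0.52 ± 0.16 SD, n = 4). In vehicle mice it was -0.05, -0.11, 0.11 and -0.03, and in GL3 mice -0.26, 0.00, 0.07 and 0.26. In SEAP-M mice it was -0.33, 0.22, -0.03 and -0.11, and in PPARa siRNA mice -0.18, -0.11, -0.22 and 0.12. All 4 PPARa-M siRNA mice therefore lay below every mouse of the other groups, the nearest of which was SEAP-M A. This is a description and was not tested. Scaling every array to 1 interquartile range drew the PPARa-M siRNA mean to -0.37, and leaving out mice C and D moved it to -0.60.

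**Figure D1:**
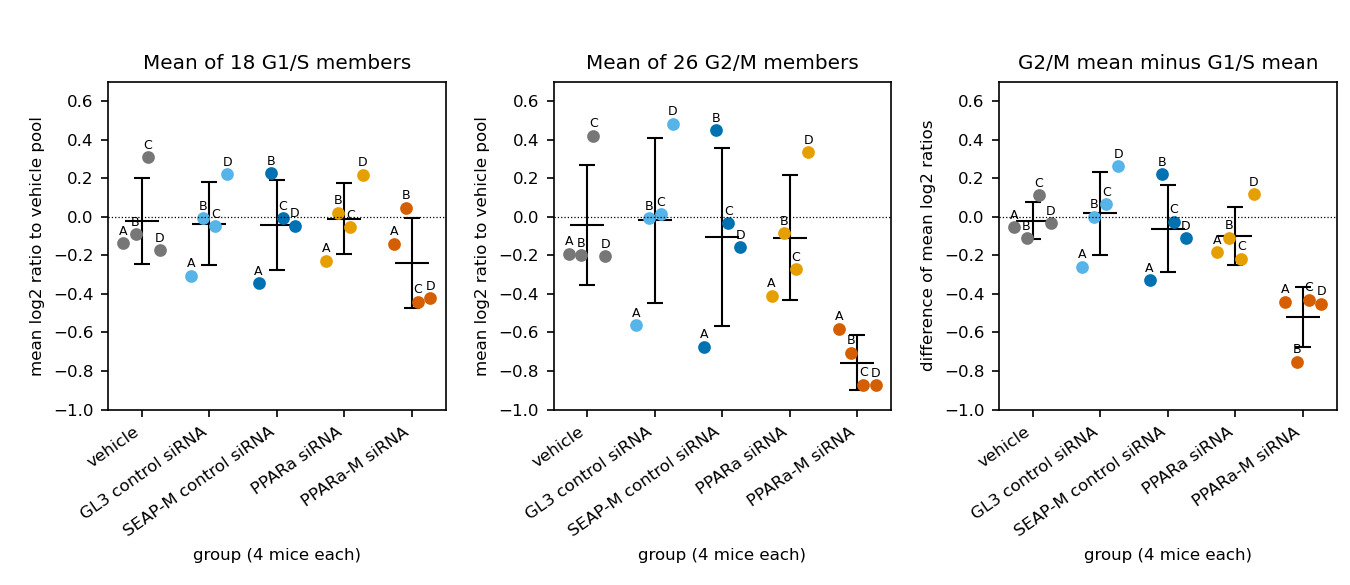
Mean log2 ratio to the vehicle pool over the 18 G1/S members (left) and the 26 G2/M members (middle), and the difference of the 2 means (right), for each mouse (points, lettered) with the group mean and SD (black), 4 mice a group. The 4 PPARa-M siRNA mice have G2/M means of -0.58 to -0.87 and lie below all other mice in the right panel, at -0.43 to -0.75.

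Gene by gene, 24 of the 26 G2/M members lay below the pool in all 4 PPARa-M siRNA mice, against 21.5% of all genes. The exceptions were Kif23, a kinesin of the central spindle, and Plk1, a kinase of mitotic entry. Among G1/S members 8 of 18 did so: the cyclins Ccne1 and Ccne2, the helicase factor Cdc45, the checkpoint kinase Chek1, the replication clamp Pcna, the ribonucleotide reductase subunits Rrm1 and Rrm2 and thymidine kinase Tk1. In PPARa siRNA mice 2 members lay below the pool in all 4 mice, both of the G2/M class, and in the vehicle, GL3 and SEAP-M groups none did. A single mouse could set such a count. In vehicle mice A, B and D only 2, 1 and 1 of the 26 G2/M members lay above the pool, but in C 25 did. The share of all genes that did so was 2.87% in vehicle, 10% in GL3, 12.8% in SEAP-M and 9.75% in PPARa siRNA mice.

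**Figure D2:**
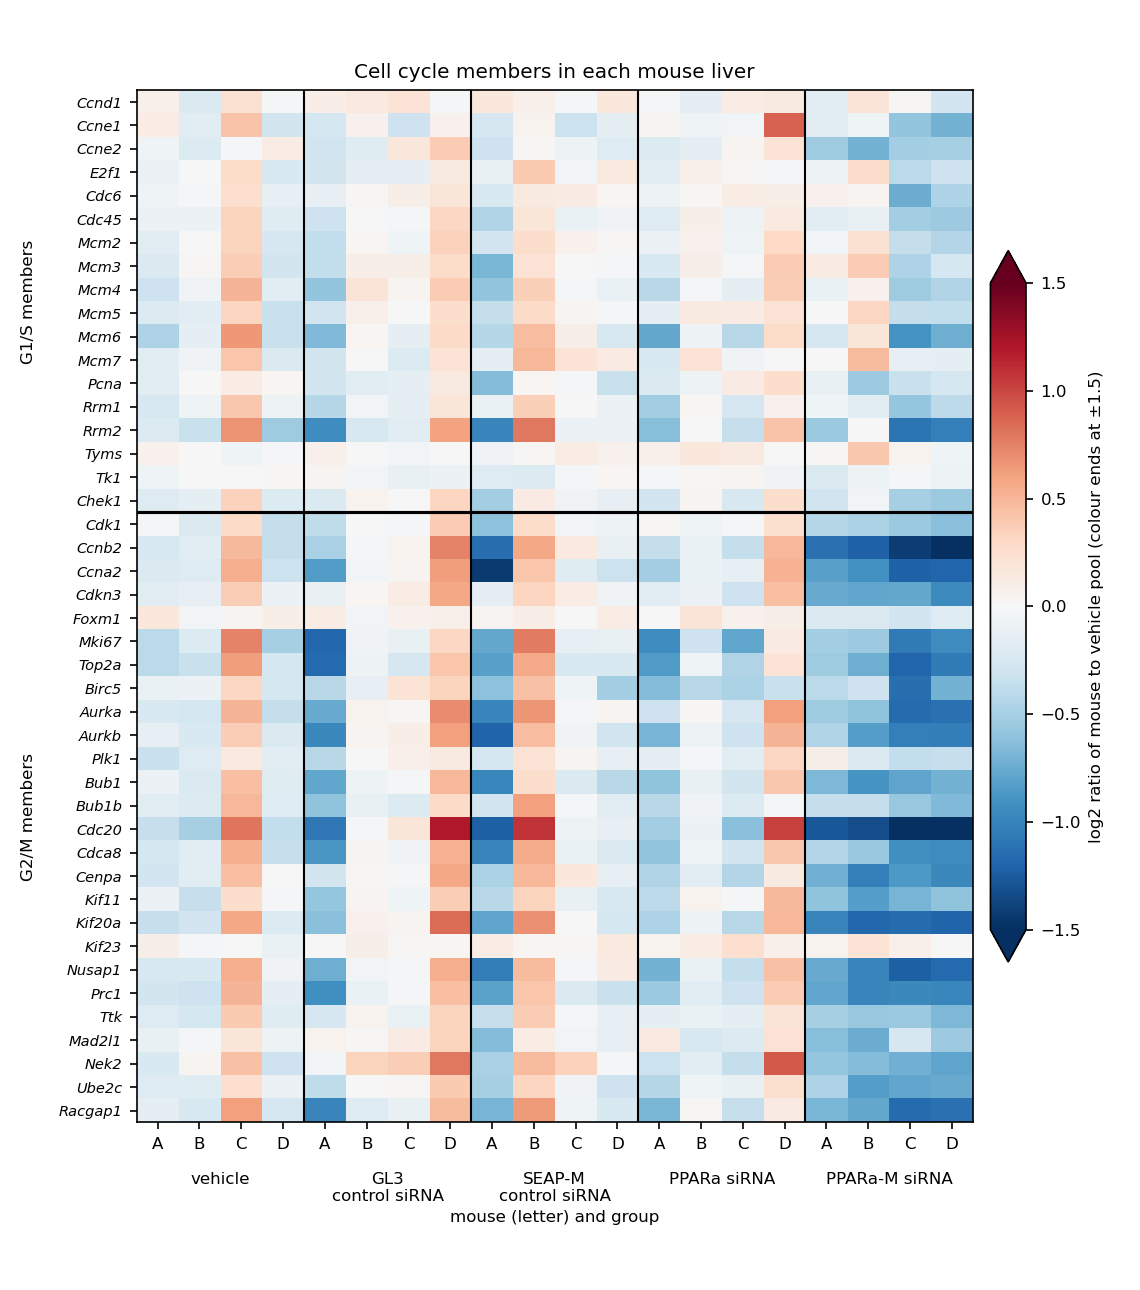
Log2 ratio to the vehicle pool of each measured member (rows, G1/S above the line, G2/M below) in each of the 20 mice (columns, 4 a group), red above and blue below the pool, with the colour ending at ±1.5. The G2/M block is blue in all 4 PPARa-M siRNA columns apart from Kif23 and, in mouse A, Plk1. In the other groups, vehicle C, GL3 D, SEAP-M B and PPARa siRNA D are red through most rows. Vehicle A, B and D, GL3 A, SEAP-M A and PPARa siRNA A, with 3 to 6 members above the pool, are blue through most rows.

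Promoter letters, which the choice of genes did not use, were counted in each class and not tested. RefSeq promoters (GRCm38.p6, 250 bases before to 50 after a gene's start, 300 in all) were matched by symbol for 39 of the 46 members, of which 2 had several entries, a motif in any of them being counted. On either strand, the CHR letters TTTGAA were found in the promoters of 17 of 24 G2/M members (70.8%) and 2 of 15 G1/S members (13.3%), against 20.2% of 27025 genes. E2F letters (TTTCCCGC, TTTCGCGC, TTTGCCGC or TTTGGCGC) were found in 1 of 24 G2/M (4.2%) and 5 of 15 G1/S members (33.3%), against 2.6% of all. CCAAT letters were found in 21 of 24 (87.5%) and 9 of 15 (60.0%), against 41.1%. Like classes of genes that are no members had like shares of CHR and E2F letters. CHR letters were in 20 of 30 other mitosis genes (66.7%) and E2F letters in 11 of 28 other DNA replication genes (39.3%). CCAAT letters were in 19 of these 30 (63.3%) and 17 of these 28 (60.7%), so the CCAAT gap between the member classes did not recur there. A match is only a run of letters in this window and does not show a bound site. Promoters of 6 members are shown with every match in capitals, 5′ to 3′, with the gene starting after the first 250 bases. Cdkn3, Cenpa, Ccne1 and Pcna are the 2 of each class with the smallest p over the 5 groups that had an entry, and Cdk1 and Mcm6 were added after their matches were known, as examples of both motifs in 1 promoter and of repeated E2F letters.
Cdkn3, G2/M, chr14:46760291-46760590, plus strand: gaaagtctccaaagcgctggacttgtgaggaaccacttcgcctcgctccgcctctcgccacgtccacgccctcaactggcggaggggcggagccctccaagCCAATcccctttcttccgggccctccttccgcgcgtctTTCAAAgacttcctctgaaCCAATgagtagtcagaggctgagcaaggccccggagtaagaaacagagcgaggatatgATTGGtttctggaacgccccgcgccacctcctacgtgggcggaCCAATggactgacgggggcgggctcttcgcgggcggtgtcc
Cenpa, G2/M, chr5:30666636-30666935, plus strand: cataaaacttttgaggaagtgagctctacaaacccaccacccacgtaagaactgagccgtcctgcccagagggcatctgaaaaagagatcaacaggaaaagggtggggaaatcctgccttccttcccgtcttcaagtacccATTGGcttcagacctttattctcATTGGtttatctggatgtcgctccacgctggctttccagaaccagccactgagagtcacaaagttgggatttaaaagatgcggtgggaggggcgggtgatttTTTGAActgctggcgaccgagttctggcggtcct
Cdk1, G2/M, chr10:69352863-69353162, minus strand: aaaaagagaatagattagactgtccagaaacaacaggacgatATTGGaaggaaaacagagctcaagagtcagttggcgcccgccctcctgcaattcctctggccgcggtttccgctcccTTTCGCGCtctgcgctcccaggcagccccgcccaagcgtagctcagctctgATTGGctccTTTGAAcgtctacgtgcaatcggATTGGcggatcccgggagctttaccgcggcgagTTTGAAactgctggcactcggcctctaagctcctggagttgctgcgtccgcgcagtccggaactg
Ccne1, G1/S, chr7:38107441-38107740, minus strand: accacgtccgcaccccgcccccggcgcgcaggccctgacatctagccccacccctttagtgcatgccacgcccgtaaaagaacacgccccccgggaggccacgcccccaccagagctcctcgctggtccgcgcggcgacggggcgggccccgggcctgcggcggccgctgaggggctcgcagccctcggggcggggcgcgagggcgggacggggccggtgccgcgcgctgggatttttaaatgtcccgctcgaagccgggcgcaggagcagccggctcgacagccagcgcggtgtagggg
Pcna, G1/S, chr2:132253131-132253430, minus strand: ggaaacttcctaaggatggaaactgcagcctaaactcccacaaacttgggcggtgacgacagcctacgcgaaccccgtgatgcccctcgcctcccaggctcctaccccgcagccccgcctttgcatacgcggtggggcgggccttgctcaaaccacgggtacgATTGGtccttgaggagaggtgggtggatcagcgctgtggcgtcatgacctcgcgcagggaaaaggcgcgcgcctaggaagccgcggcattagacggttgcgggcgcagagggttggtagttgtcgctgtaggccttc
Mcm6, G1/S, chr1:128359656-128359955, minus strand: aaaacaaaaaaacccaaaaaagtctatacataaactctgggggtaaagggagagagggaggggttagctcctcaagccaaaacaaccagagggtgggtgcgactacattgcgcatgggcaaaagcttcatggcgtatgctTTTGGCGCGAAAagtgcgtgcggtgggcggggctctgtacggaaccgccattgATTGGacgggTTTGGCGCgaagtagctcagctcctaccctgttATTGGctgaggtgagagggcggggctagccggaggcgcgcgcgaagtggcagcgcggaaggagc
In Cdkn3 the CHR letters are on the minus strand and stand between CCAAT letters on both sides, and in Cenpa they follow 2 minus-strand CCAAT runs. Cdk1 holds the only E2F match among the G2/M promoters searched, with 2 CHR and 3 CCAAT matches. In Mcm6, which unwinds DNA as part of the helicase, 2 of the 3 E2F matches are on opposite strands and overlap, so they form 1 run of capitals. Ccne1 has no match in this window and Pcna only a CCAAT match. No entry was found for Foxm1, Ccne2, Ccna2, Aurkb, Kif20a, Ccnd1 or Mcm4.

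The chief comparison asked which members differ between the PPARa-M siRNA and the SEAP-M control siRNA. In total, 4 members fell and none rose at an adjusted p under 0.05 (limma, Benjamini-Hochberg over 15252 genes), all 4 of the G2/M class, against a background of 2.54% of all genes called. They were Foxm1, the forkhead factor that drives mitotic genes, Cdkn3, a phosphatase that acts on cyclin-dependent kinases, Cenpa, the histone H3 variant of centromeres, and Ccnb2, cyclin B2. At an unadjusted p under 0.05, 19 members were lower, 1 G1/S and 18 G2/M, where 18.8% of all genes passed and 11.1% were lower. The number that passed was 29 without SEAP-M A, 12 without SEAP-M B, 10 without PPARa-M siRNA C and D and 38, with 13 called, under array quality weights. The median log2 difference was -0.61 over G2/M members, -0.19 over G1/S members and -0.01 over all genes. Scaling the arrays to 1 interquartile range, or quantile normalization, left 0 members called (9 and 10 at an unadjusted p under 0.05), with all 4 still negative, and called 13 and 1 of all genes in place of 388. Without mice C and D, 2 members were called, Foxm1 and Cdkn3 (4.55% of 44), beside 4.33% of all genes, and 2 were called without PPARa-M siRNA B, C or D or SEAP-M B or C alone.

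Foxm1, measured by 1 probe, had the narrowest spread within groups of all members, and a small difference. Outside the PPARa-M siRNA group it did not follow the G2/M class from mouse to mouse. It was 0.04 in SEAP-M A and 0.11 in GL3 A, where the G2/M means were lowest (-0.67 and -0.56). In GL3 D and SEAP-M B, where those means were highest (0.48 and 0.45), it was 0.07 and 0.10. In PPARa-M siRNA mice A to D it was -0.22, -0.22, -0.29 and -0.20 log2, and in SEAP-M mice 0.04, 0.10, 0.01 and 0.11. Every mouse of the other 4 groups lay between -0.04 and 0.20, so the PPARa-M siRNA mice stood apart from all of them. The log2 difference to SEAP-M was -0.29 ± 0.06 SE, a 1.23-fold lower level (adjusted p = 0.0109, limma).

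Cdkn3 showed the same separation at a greater distance. It was -0.76, -0.78, -0.77 and -0.95 log2 in PPARa-M siRNA mice and -0.15, 0.33, 0.11 and -0.05 in SEAP-M mice, with no overlap. Its log2 difference was -0.87 ± 0.17 SE, a 1.83-fold lower level (adjusted p = 0.0104, limma). Cenpa was -0.72, -1.03, -0.86 and -0.97 in PPARa-M siRNA mice against -0.47, 0.49, 0.16 and -0.13 in SEAP-M mice. The highest PPARa-M siRNA mouse again lay below the lowest SEAP-M mouse, and the difference was -0.91 ± 0.21 SE log2, or 1.88-fold (adjusted p = 0.0270, limma).

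Ccnb2, the partner of Cdk1, fell most among the called members, by 1.18 ± 0.31 (SE) on the log2 scale, or 2.26-fold (adjusted p = 0.0493, limma). It was -1.12, -1.21, -1.41 and -1.49 log2 in PPARa-M siRNA mice and -1.13, 0.58, 0.15 and -0.11 in SEAP-M mice. The groups met at 1 point, since SEAP-M mouse A was as low as the highest PPARa-M siRNA mouse. The call was lost in 15 of the 20 fits that left out 1 mouse, at adjusted p of up to 0.123 (without SEAP-M B).

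Cdk1 itself, the kinase that starts mitosis, was -0.43, -0.47, -0.55 and -0.63 log2 in PPARa-M siRNA mice. In SEAP-M mice it was -0.62, 0.27, -0.04 and -0.08. Mouse A again carried the overlap, and the difference of -0.41 ± 0.17 SE log2 did not pass (adjusted p = 0.206, limma).

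Cdc20, which activates the anaphase-promoting complex, had the largest log2 difference of all members, -1.52 ± 0.49 SE, or 2.86-fold, and also the widest spread, and did not pass (adjusted p = 0.0977, limma). It was -1.27, -1.33, -1.91 and -1.88 log2 in PPARa-M siRNA mice and -1.23, 1.08, -0.07 and -0.12 in SEAP-M mice. The groups did not overlap, though SEAP-M A stood close to the highest PPARa-M siRNA mouse. At the other end stood Tyms, thymidylate synthase, at 0.07 ± 0.08 SE log2 (adjusted p = 0.690, limma).

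In PPARa-M siRNA mice 10 members, 1 G1/S and 9 G2/M, were lower than in SEAP-M mice without overlap, against 6.36% of all genes, and none was higher. Besides Foxm1, Cdkn3, Cenpa and Cdc20 these were the cyclin Ccne2, the spindle checkpoint kinases Bub1b and Ttk, the spindle kinesins Kif11 and Kif20a and the centrosome kinase Nek2. Their log2 differences, those 4 aside, ranged from -1.04 ± 0.31 SE for Kif20a to -0.42 ± 0.13 SE for Ccne2, with adjusted p from 0.0691 for Ttk to 0.167 for Bub1b (limma). Apart from Ccnb2, members whose groups overlapped did not pass either, among them the kinase Aurka (-0.77 ± 0.33 SE log2), the cytokinesis regulator Racgap1 (-0.84 ± 0.30 SE) and Nusap1 (-0.92 ± 0.31 SE), at adjusted p of 0.209, 0.128 and 0.110 (limma).

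**Figure D3:**
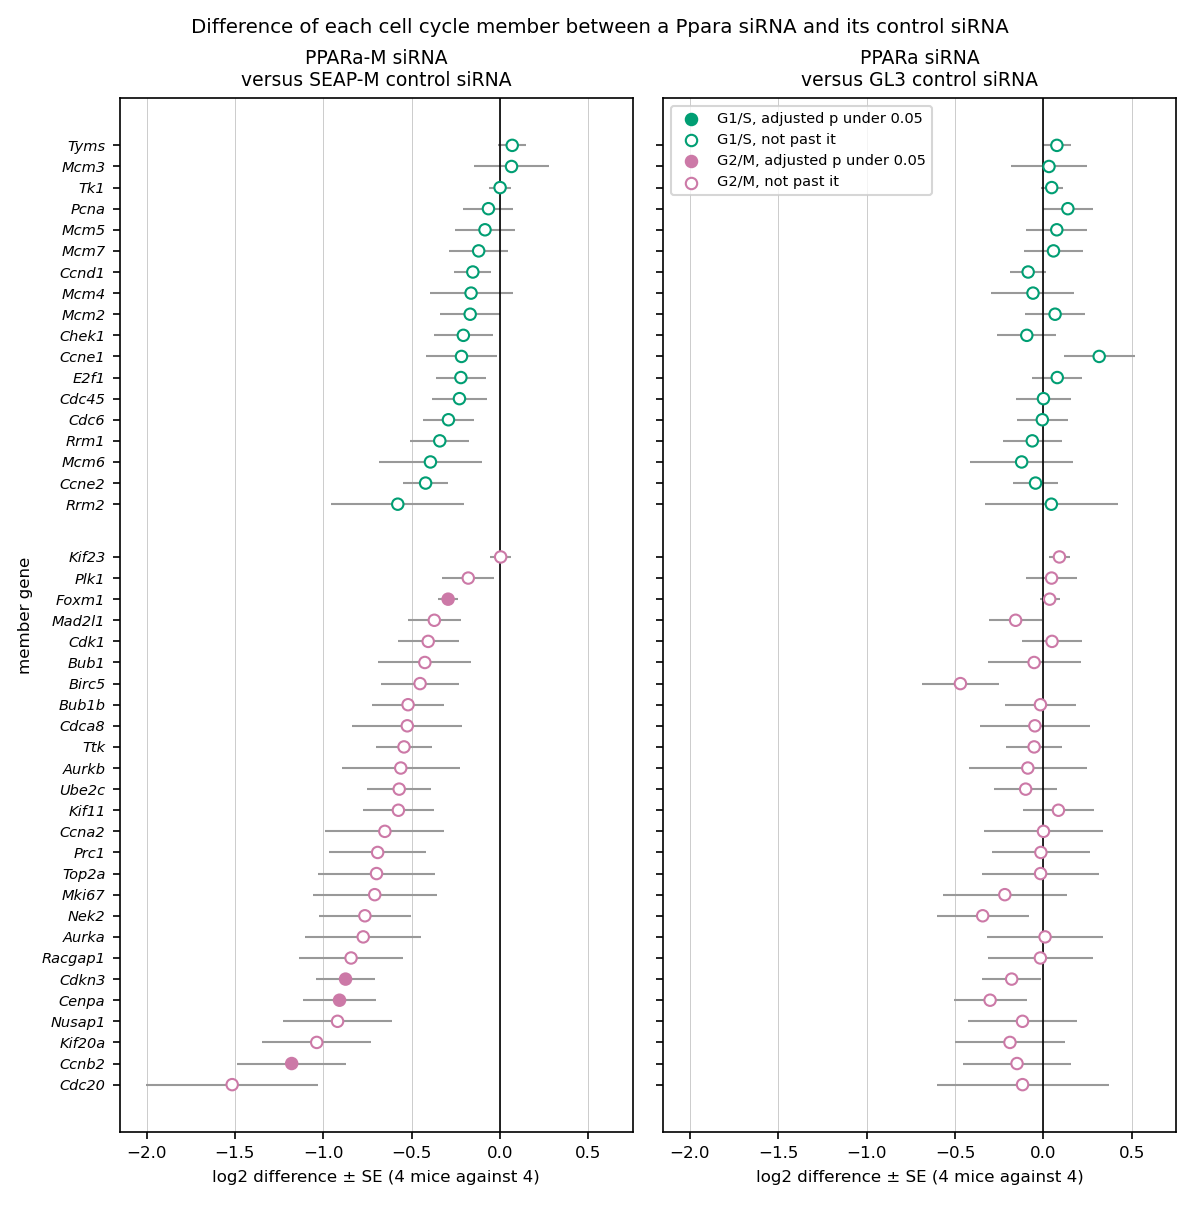
Log2 difference (points) with its SE (bars) of each member, G1/S in green and G2/M in pink, for PPARa-M siRNA against SEAP-M (left) and PPARa siRNA against GL3 (right), 4 mice against 4, filled where the adjusted p was under 0.05. On the left all G2/M members but Kif23 lie below 0, down to Cdc20 at -1.52, and 4 are filled. On the right none is filled.

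Against vehicle, 9 members were lower in PPARa-M siRNA mice and none was higher, with 7.28% of all genes called. They were 1 G1/S member, Ccne2, and 8 G2/M members. Foxm1, Cdkn3, Cenpa and Ccnb2 were again among them, at -0.29 ± 0.06, -0.81 ± 0.17, -0.89 ± 0.21 and -1.24 ± 0.31 (SE) log2 (adjusted p = 0.00816, 0.0103, 0.0180 and 0.0234, limma). The comparison shares its PPARa-M siRNA mice with the one against SEAP-M, so the 2 are not independent. Lower without overlap were 25 members, 1 G1/S and 24 G2/M, against 7.73% of all genes. The median difference was -0.72 log2 over G2/M, -0.27 over G1/S members and -0.02 over all genes. Scaling to 1 interquartile range or quantile normalization again left 0 called (7 and 8 at an unadjusted p under 0.05), and called 22 and 19 of all genes in place of 1110. Leaving out vehicle A, C or D, or PPARa-M siRNA B or D, left 4, 4, 2, 4 and 5 called, and leaving out both PPARa-M siRNA C and D left 5 (11.4% of 44), beside 13.4% of all genes.

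The others called against vehicle belonged to the spindle and to protein destruction at the end of mitosis. Mad2l1, which holds the anaphase-promoting complex in check, was -0.64, -0.74, -0.26 and -0.55 log2 in PPARa-M siRNA mice and -0.11, -0.03, 0.18 and -0.07 in vehicle mice, and differed by -0.54 ± 0.15 SE (adjusted p = 0.0364, limma). Ube2c, the ubiquitin-conjugating enzyme of that complex, was -0.46, -0.83, -0.77 and -0.76 in PPARa-M siRNA mice and -0.20, -0.19, 0.25 and -0.08 in vehicle mice, a difference of -0.65 ± 0.18 SE (adjusted p = 0.0366, limma). Neither gene's groups overlapped. Kif20a, a kinesin of cytokinesis, was -0.99, -1.18, -1.15 and -1.21 in PPARa-M siRNA mice and -0.35, -0.29, 0.58 and -0.20 in vehicle mice, a difference of -1.07 ± 0.31 SE (adjusted p = 0.0443, limma). Nusap1, which binds spindle microtubules, was -0.75, -0.99, -1.23 and -1.17 against -0.24, -0.23, 0.54 and -0.05, a difference of -1.04 ± 0.31 SE (adjusted p = 0.0476, limma). In both genes vehicle mouse C stood well above the other vehicle mice.

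The 2 Ppara siRNAs could also be set against each other. Lower in PPARa-M siRNA than in PPARa siRNA mice were 10 members, 1 G1/S and 9 G2/M, with 9.02% of all genes called, so the members' 10 of 44 stands beside a broad difference between these groups. They were Foxm1 (-0.32 ± 0.06 SE log2, adjusted p = 0.00204), Cdkn3 (-0.79 ± 0.17, 0.00673), Ccne2 (-0.54 ± 0.13, 0.0136), Ccnb2 (-1.23 ± 0.31, 0.0178), Kif11, Mad2l1, Ube2c, Ttk, Kif20a and Cdk1 (all limma). Cdk1 was 0.02, -0.06, -0.02 and 0.24 log2 in PPARa siRNA mice, all above the PPARa-M siRNA mice, and differed by -0.56 ± 0.17 SE (adjusted p = 0.0469, limma). Kif11, which pushes the spindle poles apart, was -0.40, 0.05, -0.03 and 0.49 in PPARa siRNA mice and -0.60, -0.83, -0.70 and -0.61 in PPARa-M siRNA mice. The groups did not overlap, with a difference of -0.71 ± 0.20 SE (adjusted p = 0.0330, limma). Ttk was -0.14, -0.10, -0.14 and 0.20 against -0.49, -0.56, -0.56 and -0.67, again with no overlap, and differed by -0.52 ± 0.16 SE (adjusted p = 0.0451, limma).

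Lower without overlap in PPARa-M siRNA than in PPARa siRNA mice were 19 members, 1 G1/S and 18 G2/M, against 7.78% of all genes. After scaling to 1 interquartile range, or quantile normalization, 1 member was called, beside 2.26% and 1.84% of all genes. Centring each array on its median left 6, leaving out any 1 mouse of either group left 3 to 6, and leaving out PPARa-M siRNA C and D left 4 (9.09% of 44), beside 12.5% of all genes. Markers of macrophages and neutrophils averaged 1.62 log2 in PPARa siRNA mouse D against -0.47 to 0.52 in all other mice, and D was the mouse with the highest value of its group for 37 of the 44 members. Its part in these differences was not tested beyond leaving it out, which left 3 called.

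Over the 5 groups together, an F test called 6 members, 1 G1/S and 5 G2/M, against 5.76% of all genes: Foxm1, Cdkn3, Cenpa, Ccne2, Ccnb2 and Mad2l1. Their adjusted p ran from 0.00882 for Foxm1 to 0.0475 for Mad2l1 (limma). Scaling or quantile normalization left 0, beside 1.18% and 0.905% of all genes, leaving out PPARa-M siRNA A, B or D left 2, leaving out PPARa-M siRNA C or GL3 C left 3, and leaving out both PPARa-M siRNA C and D left 1 (2.27% of 44), beside 7.61% of all genes.

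Among G1/S members, only the E-type cyclin Ccne2 passed in any comparison. It was -0.53, -0.71, -0.51 and -0.50 log2 in PPARa-M siRNA mice A to D, below every other mouse, the lowest of which was a SEAP-M mouse at -0.31. It differed from vehicle by -0.52 ± 0.13 SE log2, or 1.43-fold (adjusted p = 0.0236, limma), and from SEAP-M by -0.42 ± 0.13 SE (adjusted p = 0.0826, limma). Its level was as low in mice A and B as in C and D. Its paralog Ccne1 did not share this pattern: it was -0.17, -0.06, -0.59 and -0.71 in PPARa-M siRNA mice and 0.04, -0.07, -0.04 and 0.88 in PPARa siRNA mice, where 1 mouse was far above the rest. Ccnd1, the cyclin that answers growth factor signals, was -0.16, 0.20, 0.02 and -0.29 in PPARa-M siRNA mice. In all others it lay between -0.21 and 0.23, so only PPARa-M siRNA mouse D fell outside their range.

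The 6 subunits of the replicative helicase, Mcm2 to Mcm7, had log2 differences to SEAP-M between -0.39 ± 0.29 SE (Mcm6) and 0.06 ± 0.21 SE (Mcm3). In PPARa-M siRNA mice Mcm6 was -0.25, 0.18, -0.89 and -0.73, and Mcm3 was 0.12, 0.39, -0.47 and -0.26. Mice C and D were thus lower than A and B in both genes, but only Mcm6 in mouse C lay below every mouse of the other groups, the lowest of which was at -0.77. Cdc6, the helicase loader, was 0.07, 0.04, -0.74 and -0.46, and Cdc45, part of the active helicase, was -0.16, -0.11, -0.52 and -0.55. In both, C and D lay below every mouse of the other groups and A and B did not. Cdc6 and Cdc45 had adjusted p of 0.443 and 0.462 over the 5 groups (limma).

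Nucleotide synthesis members differed widely among themselves. Rrm2, the regulated subunit of ribonucleotide reductase, was -0.56, -0.01, -1.10 and -1.02 in PPARa-M siRNA mice and -0.99, 0.80, -0.09 and -0.09 in SEAP-M mice, with a difference of -0.58 ± 0.38 SE log2. Rrm1, its partner, was -0.07, -0.16, -0.57 and -0.39 in PPARa-M siRNA mice. Tk1 lay between -0.21 and 0.05 in all 20 mice, and Tyms between -0.07 and 0.15 in all but PPARa-M siRNA mouse B, where it was 0.41. Pcna was -0.11, -0.54, -0.34 and -0.26 in PPARa-M siRNA mice, and overlapped with SEAP-M mice at -0.66, 0.03, -0.03 and -0.33. E2f1 at -0.07, 0.27, -0.40 and -0.31 and Chek1 at -0.30, -0.04, -0.50 and -0.56 overlapped with other groups as well.

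**Figure D4:**
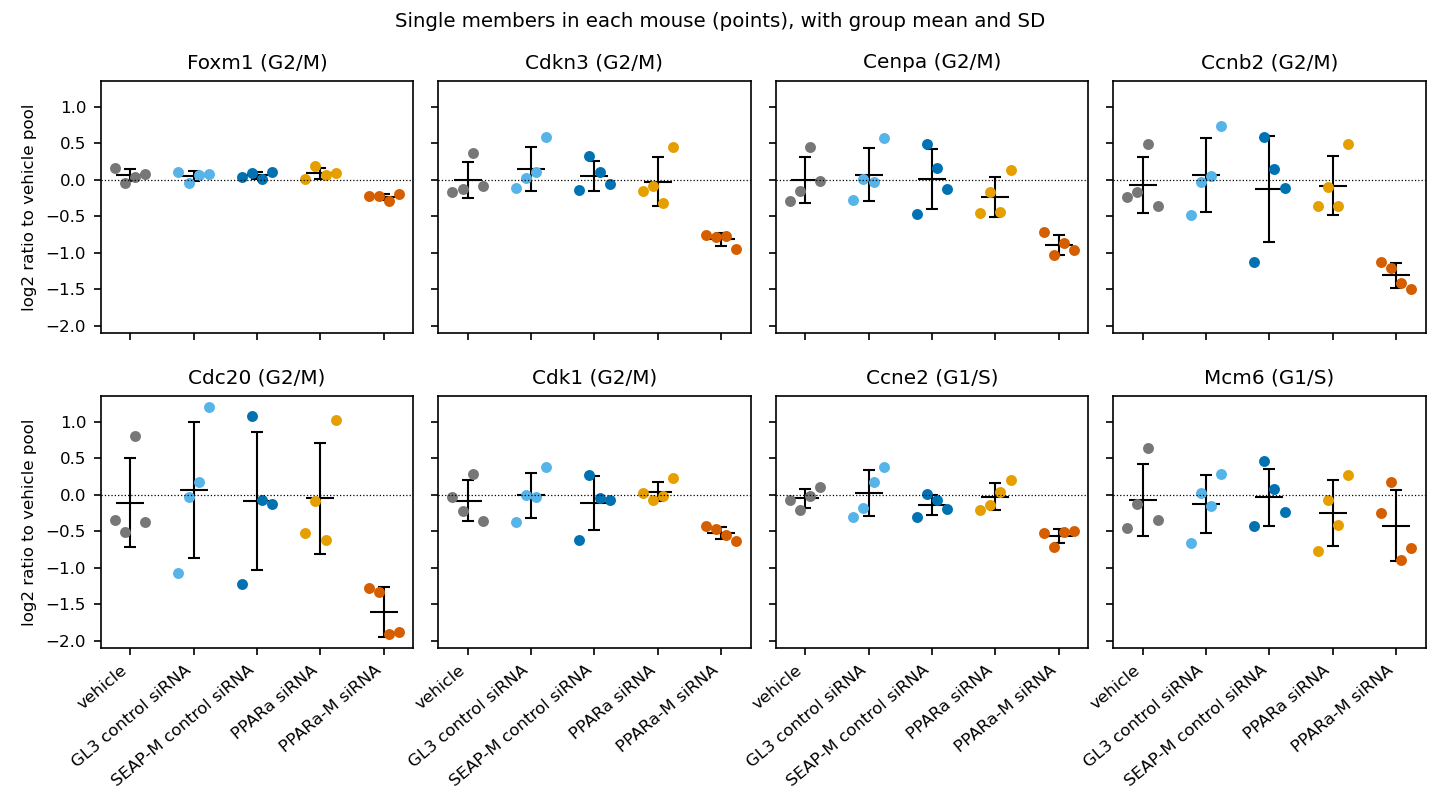
Log2 ratio to the vehicle pool of 8 members in each mouse (points), with the group mean and SD (black), 4 mice a group. In Foxm1, Cdkn3 and Ccne2 the PPARa-M siRNA mice lie below every other mouse, in Ccnb2 and Cdk1 SEAP-M mouse A (-1.13 and -0.62) lies among them, and in Mcm6 the groups overlap.

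Several probes measured 5 of the members, and in Plk1, Birc5 and Kif23 they disagreed. For Plk1, 1 probe differed by 0.21 and the other by -0.57 log2 between PPARa-M siRNA and SEAP-M mice, so its mean of -0.18 describes neither. For Birc5, a subunit of the chromosomal passenger complex, the 2 probes differed by 0.01 and -0.92. For Kif23 they differed by -0.10 and 0.11. The 3 probes of Chek1 all differed downward, by -0.12, -0.36 and -0.14, and the 2 of Tk1 by 0.04 and -0.04. With each probe tested alone, 4 members were again called against SEAP-M.

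For the PPARa siRNA against GL3, 0 members were called by limma, with 0.0525% of all genes called. At an unadjusted p under 0.05, 1 member passed, Birc5, lower at -0.47 ± 0.22 SE log2 (unadjusted p = 0.0460, limma), against 4.95% of all genes in either direction. With 1 probe per gene, or without PPARa siRNA A, B or C, 0 members passed it, and array quality weights gave 6. No member was lower without overlap, against 1.99% of all genes. The median difference over the 44 members was -0.02 log2, and it moved to -0.23 with array quality weights and between -0.18 without GL3 A and 0.10 without GL3 D. Foxm1 was 0.01, 0.20, 0.06 and 0.09 in PPARa siRNA mice and 0.11, -0.04, 0.07 and 0.07 in GL3 mice, and Ccnb2 was -0.35, -0.10, -0.35 and 0.49 against -0.48, -0.03, 0.05 and 0.74. In both genes the groups overlapped. Against vehicle, 0 members were called (0.0787% of all genes). At an unadjusted p under 0.05 only Kif23 passed, higher at 0.14 ± 0.06 SE log2, against 5.55% of all genes in either direction. With 1 probe per gene 0 members passed.

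Whether the 2 siRNAs differed in their effects, each relative to its own control siRNA, was tested as an interaction. No member was called by limma, with 0.879% of all genes called. At an unadjusted p under 0.05, 5 of the 44 members passed, a share no higher than the 12.6% of all genes. All 5 were G2/M members and more negative for PPARa-M siRNA: Foxm1, Cdkn3, Ccnb2, Kif11 and Ttk. The number that passed moved with single mice: it was 17 without SEAP-M A, 16 without GL3 D, 11 without PPARa siRNA A, 3 without PPARa-M siRNA D or SEAP-M C, 2 without SEAP-M B, PPARa siRNA D or GL3 A, and 2 without both PPARa-M siRNA C and D. Foxm1 came nearest at -0.33 ± 0.08 SE log2 (adjusted p = 0.0621, limma), and Cdkn3 was -0.69 ± 0.24 SE (adjusted p = 0.208, limma). With both Ppara siRNAs pooled against both control siRNAs, 0 members were called (0.216% of all genes). At an unadjusted p under 0.05, 13 passed, all lower, led by Cdkn3 at -0.53 ± 0.12 SE log2 (adjusted p = 0.0753, limma). Of all 15252 genes 11.3% passed in either direction, and 1044 of them were lower. Leaving out PPARa siRNA mouse D left 1 called, and array quality weights gave 6 called and 34 at an unadjusted p under 0.05. The number that passed the latter was 22 without GL3 A, 21 without SEAP-M A and 9 without PPARa-M siRNA C and D.

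Between the control siRNAs and vehicle no member passed. By limma 0 members were called for SEAP-M against vehicle (0.00656% of all genes), for GL3 against vehicle (0.0131%) and for SEAP-M against GL3 (0.0%). At an unadjusted p under 0.05 there were 0 members in each, where 5.85%, 2.77% and 11.1% of all genes passed. The medians over the 44 members were -0.03, 0.01 and -0.06 log2, and single mice turned their sign. The first ran from -0.20 without SEAP-M B to 0.10 without SEAP-M A, the second from -0.11 without GL3 D to 0.16 without GL3 A, and the third from -0.20 without SEAP-M B to 0.07 without SEAP-M A.

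Mice of 1 group differed from each other more in these members than in most genes. The pooled SD within groups had a median of 0.31 log2 over the 44 members (0.40 over G2/M, 0.25 over G1/S) against 0.15 over all genes, and 40 of the 44 exceeded that of all genes. It was widest for Cdc20 (0.75), Rrm2 (0.58) and the proliferation antigen Mki67 (0.54). It was narrowest for Foxm1 (0.07), Kif23 (0.07), Tk1 (0.08) and Tyms (0.11). Most members were high or low together in the same mouse. In vehicle mouse C 40 of the 44 members lay above the pool, in GL3 D 42, in SEAP-M B 43 and in PPARa siRNA D 39. In vehicle A, B and D only 5, 5 and 4 did, and in GL3 A, SEAP-M A and PPARa siRNA A 6, 3 and 6. In the remaining mice of these groups 10 to 22 did. The share of all genes above the pool ranged from 44.5% to 55.6% in the 20 mice. In PPARa-M siRNA mice A to D, 7, 11, 3 and 0 members lay above the pool.

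For some genes these differences between mice were as large as those between groups. Mki67 was -0.41, -0.21, 0.75 and -0.50 in vehicle mice, -1.18, -0.05, -0.11 and 0.31 in GL3 mice and -0.51, -0.55, -1.06 and -0.94 in PPARa-M siRNA mice. Top2a, which untangles DNA before chromosomes part, was -1.16 in GL3 mouse A and between -0.53 and -1.19 in PPARa-M siRNA mice. Ccna2, cyclin A2, was -1.44 in SEAP-M mouse A and -0.82, -0.91, -1.22 and -1.19 in PPARa-M siRNA mice. In each of these genes single control mice reached the PPARa-M siRNA range. Aurkb, Bub1, Cdca8, Prc1 and Racgap1 showed the same low SEAP-M A or GL3 A values, from -0.70 to -1.20 in SEAP-M A.

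Other genes of the cycle were taken from lists of their own. Of 36 other mitosis genes, 1 fell against SEAP-M, 6 against vehicle and 7 against PPARa siRNA in PPARa-M siRNA mice, and none rose, where 2.54%, 7.28% and 9.02% of all genes were called. Cdca3, a trigger of mitotic entry, fell by 1.13 ± 0.28 (SE) on the log2 scale against SEAP-M (adjusted p = 0.0370, limma), and Ect2, the exchange factor of cytokinesis, was -1.02 ± 0.25 SE against vehicle (adjusted p = 0.0223, limma). The median over these 36 genes was -0.40 log2 against SEAP-M. Of 33 other DNA replication genes, 1, 3 and 1 fell and none rose in the same comparisons, against the same shares of all genes, with a median of -0.07 against SEAP-M. Among them was the clamp loader subunit Rfc5 (-0.35 ± 0.09 SE log2 against SEAP-M, adjusted p = 0.0428, limma).

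Of 26 other cyclins, CDKs, E2F and DREAM components, 0, 2 and 2 fell against SEAP-M, vehicle and PPARa siRNA, again beside 2.54%, 7.28% and 9.02% of all genes, and 5 passed an unadjusted p under 0.05 in the first, beside 18.8%. They included Wee1, the kinase that holds Cdk1 inactive (-0.79 ± 0.23 SE log2 against vehicle, adjusted p = 0.0425, limma), and Rb1, the retinoblastoma protein that binds E2F (-0.54 ± 0.14 SE, adjusted p = 0.0289, limma). Of 17 CDK inhibitors and p53 targets, 1, 1 and 3 fell and 0, 0 and 1 rose in the same 3 comparisons, against the same shares of all genes. The inhibitor Cdkn2c, of CDK4 and CDK6, fell in all 3, by 0.49 ± 0.07 (SE) on the log2 scale against SEAP-M (adjusted p = 0.00314, limma). Cdkn1a, the p21 inhibitor, was 0.40, 0.27, 0.44 and 0.31 in PPARa-M siRNA mice and rose against PPARa siRNA by 0.43 ± 0.12 SE log2 (adjusted p = 0.0302, limma) but did not pass against SEAP-M or vehicle (adjusted p = 0.223 and 0.0693, limma). Btg2, an antiproliferative p53 target, rose in PPARa siRNA mice by 1.26 ± 0.17 SE log2 against GL3 (adjusted p = 0.00456, limma), where no member and 0.0525% of all genes were called. Of 11 growth signals of hepatocytes, 1 was called against SEAP-M, beside 2.54% of all genes. It was Hbegf, an EGF-receptor ligand, which rose by 0.44 ± 0.11 SE log2 (adjusted p = 0.0428, limma). Of the 11, 7 were lower and 4 higher than in SEAP-M mice, with a median of -0.08 log2.

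Markers of other cells are given beside these results. Erythroid markers, 8 measured, averaged -0.32, -0.32, -0.74 and -0.39 log2 in PPARa-M siRNA mice and -0.27 to 0.30 in all others, without overlap. In PPARa-M siRNA mice 1 of 8 fell against vehicle, Alas2 of red cell haem synthesis (-0.63 ± 0.16 SE log2, adjusted p = 0.0268, limma), and 1 against SEAP-M, Ermap (-1.28 ± 0.27 SE, adjusted p = 0.0199, limma). Of all genes 7.28% and 2.54% were called in these comparisons. All 8 were lower than in vehicle mice, with a median of -0.40 log2. Against SEAP-M 6 were lower and 2 higher, with a median of -0.135. Against SEAP-M, 4 of the 22 interferon-stimulated genes rose, beside 2.54% of all genes called, led by Eif2ak2 (0.51 ± 0.10 SE log2, adjusted p = 0.0142, limma). Endothelial markers, 9 measured, had 1 that rose against SEAP-M, Flt1 (0.46 ± 0.11 SE log2, adjusted p = 0.0370, limma), beside 2.54% of all genes called. Of the 9, 4 were higher and 5 lower than in SEAP-M mice, with a median difference of -0.001 log2. These markers averaged 0.09 to 0.25 in PPARa-M siRNA mice against -0.17 to 0.17 in the others. Of the 14 hepatocyte, 11 lymphocyte, 12 macrophage and neutrophil, 5 cholangiocyte and 8 stellate cell and fibroblast markers, 0 were called against SEAP-M, and 6, 1, 0, 3 and 1 passed an unadjusted p under 0.05, where 18.8% of all genes did. The part of any of these cells in the G2/M difference was not tested.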

How the data were processed

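Livers of 20 mice in 5 groups were profiled on 2-colour custom oligonucleotide arrays, each mouse (Cy5) against a vehicle pool (Cy3) in 1 dye orientation. The authors deposited 1 log10 ratio per probe and array; background correction and normalization before deposit are not given in the sources used here, and 40 of 469860 values sat at a limit of 2 or -2. Here log10 ratios were turned into log2, probes with 1 symbol in the platform annotation were averaged per gene (15252 genes), and group means over all 20 arrays were fitted with limma 3.58.1 (R 4.3.3), with Benjamini-Hochberg adjustment over all genes and a threshold of 0.05. The fit was tested on simulated data. Without intensities no filter on dim probes was possible, and the number of arrays limits the precision. Dye bias remains in ratios to the pool but cancels between groups. Members and lists were chosen with earlier results of these data known. Named were Ppara, Cdk1, every member called, the extremes of each comparison with a call, the 4 of each class with the smallest F test p, and up to 3 genes of each other list by p. Cdc20, Mcm, Rrm2 and other members described by role were added after their values were seen. Alternatives were median centring, quantile normalization, interquartile scaling, array weights, robust moderation, other probe rules, medians over a class, S-phase genes left out of their class, a replicate block, fits on the compared groups alone and leaving out mice. Mice are separate animals, and whether the pool held the same vehicle mice is not stated.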

Additional observations from a re-analysis of the deposited data

Results flagged for a closer look

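Within groups of 4 mice, 19 of 240 sets of values had a highest or lowest mouse whose gap to its neighbour exceeded Dixon's 95% critical value as a share of the group's range (48 quantities in 5 groups). Chance flags about 1 in 20 such sets, and members that vary together are not independent. Vehicle mouse C accounted for most: it stood high for Chek1 (0.34 log2), Ccna2 (0.54), Cdkn3 (0.37), Top2a (0.63), Aurka (0.52), Bub1b (0.50), Cdc20 (0.80), Kif20a (0.58), Ttk (0.40), Racgap1 (0.62) and the mean of the G2/M members (0.42). PPARa siRNA mouse D stood high for Ccne1 (0.88), Ttk (0.20) and Nek2 (0.92). Among PPARa-M siRNA mice, B stood low for Ccne2 (-0.71), for Ppara (-1.05) and for the G2/M mean minus the G1/S mean (-0.75), D stood low for Cdkn3 (-0.95), and A stood high for Prc1 (-0.78).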

How the results depend on the processing

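None of the 23 calls of a member turned its sign in 690 alternative values, of which 476 still passed and 214 did not. Many of these values could not turn. Leaving out a mouse of a group not compared, robust moderation, a replicate block and a fit on the compared groups alone keep the log2 difference as it was. The count of signs is therefore no measure of how firm a direction is. Counts of members called moved as follows. Quantile normalization and scaling to 1 interquartile range each left 0 for PPARa-M siRNA against SEAP-M, 0 against vehicle, 1 against PPARa siRNA and 0 in the F test, with 1 of the 23 calls kept. Calls over all genes fell as well, from 388, 1110, 1375 and 879 to 1, 19, 280 and 138 with quantile normalization and to 13, 22, 345 and 180 with scaling. Array quality weights gave 13 against SEAP-M, 13 in the F test, 6 for both Ppara siRNAs pooled and 1 for the difference between the siRNAs. Fitting only the groups compared gave 1 against SEAP-M, testing every probe gave 1 for the difference between the siRNAs, and median centring gave 6 against PPARa siRNA. With both PPARa-M siRNA C and D left out, chosen after seeing the data, counts were 2 against SEAP-M, 5 against vehicle, 4 against PPARa siRNA and 1 in the F test, or 4.55%, 11.4%, 9.09% and 2.27% of the 44 members, while 4.33%, 13.4%, 12.5% and 7.61% of all genes were called. Leaving out 1 mouse at a time gave 2 to 5 against SEAP-M, 2 to 12 against vehicle, 3 to 14 against PPARa siRNA, 0 to 1 for both siRNAs pooled and 2 to 8 in the F test, and 0 in the others. The lowest counts came without PPARa-M siRNA B, C or D or SEAP-M B or C (2 against SEAP-M), without vehicle D (2), without PPARa siRNA D (3) and without PPARa-M siRNA A, B or D (2 in the F test). The G2/M mean minus the G1/S mean stayed within 1 SD of the group's 4 mice in every group. For PPARa-M siRNA it lay between -0.36 and -0.60, beside a main value of -0.52 ± 0.16 (SD). Leaving out 1 of 4 mice cannot move their mean by 1 SD, so those fits had to stay within it. The letters A to D do not pair mice: deviations of same-letter mice correlated at -0.21 to 0.30 over 40 pairs of arrays (median -0.02), and those of different letters at -0.37 to 0.37. A fit with the replicate letter as a replicate block gave 5 members against SEAP-M, 11 against vehicle and 10 against PPARa siRNA, and kept 21 of the 23 calls.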
